A study of Homo sapiens with 2 samples.

Results

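The S100 gene cluster on chromosome 1q21 was described here through the chromatin interactions that TCF3::HLF-HiChIP listed around 8 of its genes, S100A8, S100A9, S100A12, S100A7, S100A6, S100A4, S100A10 and S100A11. HiChIP combines proximity ligation of chromatin with immunoprecipitation, so that it counts pairs of distant DNA segments that were close to each other in fragments recovered with an antibody. An interaction was taken as a member if either of its 5-kb bins overlapped the body of one of these genes or the 50 kb around it. This rule selected 69 of the 49245 interactions in the deposited list, of which 4529 lie on chromosome 1. The genes and the strongest pair were chosen by their contact counts in this list and the P value that goes with them, so these values are given below as a description and carry no test.

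The cells were HAL-01, a leukemia cell line with t(17;19), the translocation that fuses TCF3 to HLF. They carried Cas9GFP and were selected for stable wt-TCF3 KO, and the immunoprecipitation used an E2A antibody, E2A being another name of TCF3. A single condition was studied, in 2 replicates that the authors merged before calling interactions, and no control condition was analysed here. Every value is therefore 1 pooled value of a single cell line, without replicate error, and each 95% interval of a contact count is an exact Poisson interval that covers counting error only.

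S100 proteins are small calcium-binding proteins of the EF-hand family. S100A8 and S100A9 pair to form calprotectin, an abundant cytosolic protein of neutrophils and monocytes, and S100A12 is a further calgranulin of myeloid cells. Their genes lie near the genes of the cornified envelope of the skin, which the epidermal differentiation complex holds. S100A7 and its close copy S100A7A are mainly known from keratinocytes. The HLF part of the fusion binds DNA through a basic leucine zipper of the PAR family, whose recognition motif is a palindrome.

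The interactions centered on a bin that holds no gene. The bin at chr1:153365001-153370000 (hg38) lies between S100A9, whose body ends 3.98 kb before it, and S100A12, whose body starts 3.71 kb after it, and it took part in 25 of the 69 interactions. The strongest of these joined it to chr1:153420001-153425000, within S100A7A, at a distance of 55 kb with a contact count of 190. Neither bin of this pair overlaps S100A8, whose start lies 20.98 kb from the first bin, against 7.15 kb for the start of S100A9, 5.62 kb for that of S100A12 and 46.52 kb for that of S100A7A.

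To show what sequence lies under these bins, exact matches to TTACGTAA or TTATGTAA, called the HLF motif here, were searched on both strands, together with TTGCGTAA, TTGCATAA and TTGCGCAA as related forms. TTACGTAA and TTGCGCAA read the same on both strands and were counted once per position, and no site was counted under more than 1 spelling. Each site is given 5′ to 3′ on the strand of the match, with the match in capitals. The first 3 sites lie in the 3 bins of the merged group around S100A7A, which pair with the bin between S100A9 and S100A12, and come from chr1:153415263-153415292 (minus strand, intergenic), chr1:153421517-153421546 (plus strand, in an annotated UTR of S100A7A) and chr1:153426109-153426138 (minus strand, intergenic). The fourth lies in the merged group that spans S100A7, before the start of that gene, at chr1:153466218-153466247 (plus strand, intergenic), and the fifth is the only match in the bin within PGLYRP3 that is the second most used of the cluster, at chr1:153306808-153306837 (plus strand, intron). The sixth is the only related form in the bin between S100A9 and S100A12, at chr1:153368647-153368676 (plus strand, intergenic). The seventh is the match before the start of S100A12, at chr1:153375680-153375709 (plus strand), which lies in a bin with no interaction.
before S100A7A: tctgtcagttcTTATGTAAccagggggacc
in S100A7A: tcaatactactTTATGTAAacagcagtgta
after S100A7A: gattcagcctcTTATGTAActgggattcca
before S100A7: gtaatggtgggTTACGTAAatcttgatgcc
in PGLYRP3: aactgcagttgTTACGTAAccttccttgct
between S100A9 and S100A12: agaggaagataTTGCATAActtcccttggt
before S100A12: cttgaggcaatTTATGTAAagtactctgtt

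The contact counts of the 69 interactions ranged from 13 to 190 with a median of 28, beside a median of 24 (range, 7 to 615) in the whole list. Together they added up to 2206 read pairs, 0.174% of the 1268490 in the list. The bins lay from 50 kb, the smallest distance that was called, to 2990 kb apart, and the median distance was 245 kb against 255 kb in the list. A contact count above the median of all listed interactions at the same distance was found in 45 of the 69 interactions, and in 47.6% of the list. Of these 45, 13 and 8 were interactions of the bin between S100A9 and S100A12, toward higher and lower coordinates. That bin belongs to the pair chosen by its contact count. A contact count of at least 50 was reached by 4 interactions, with 190, 103, 92 and 54 read pairs, and the others had at most 46. In the whole list, 2.83% of the interactions reached 50. The largest q-value among the 69 was 0.00927, and 47 had a q-value under 1e-05, beside 66.5% of the list.

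**Figure D1:**
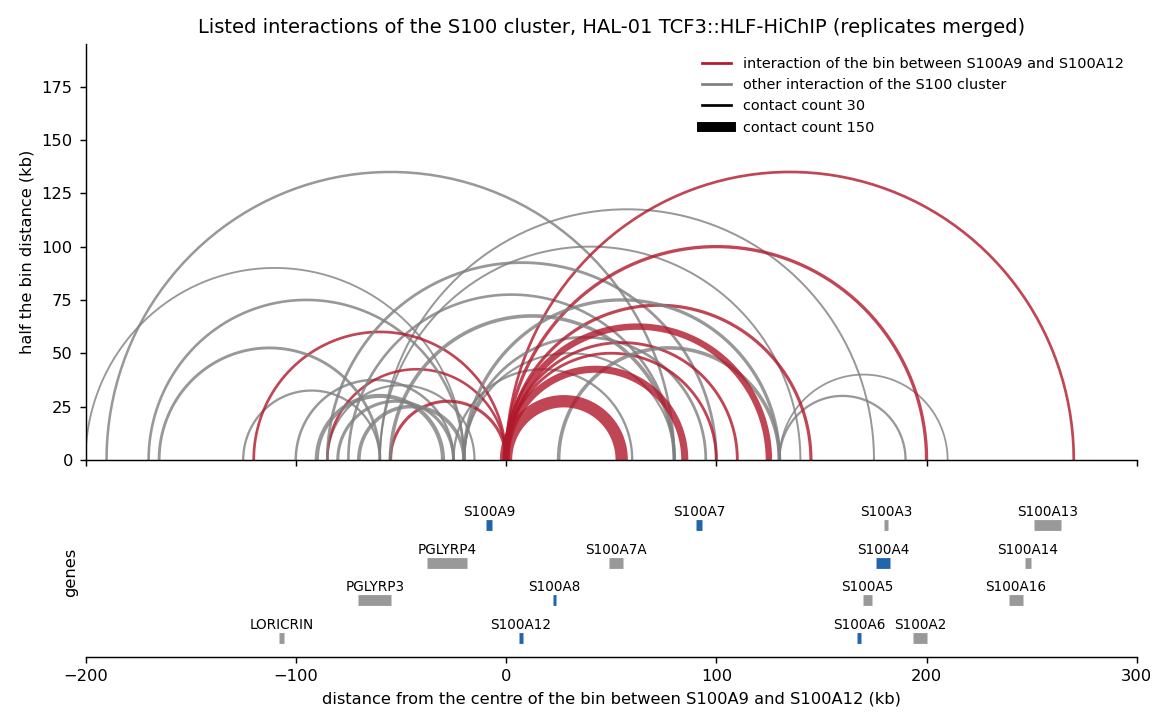
Listed interactions of the S100 cluster with both bins from 200 kb before to 300 kb after the bin between S100A9 and S100A12 (33 of the 69). They are drawn as arcs over a distance axis in kb. Arc height grows with the distance between the bins, and line width grows with the contact count. Red arcs belong to the bin between S100A9 and S100A12 and blue boxes are the member genes. The widest arc, with a contact count of 190, ends at S100A7A.

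The pair of the intergenic bin and S100A7A had the largest contact count at its exact distance. Its contact count of 190 (Poisson 95% interval, 164 to 219) was 7.31 times the median of 26 over the 1188 listed interactions with bins 55 kb apart. Among the 4618 interactions within 10 kb of that distance it ranked 4th. The next largest at this distance were 138 (116 to 163) between 2 bins within EXOC6B on chromosome 2, then 126 (105 to 150) for a pair that ends in ARMC9, also on chromosome 2, and 126 within SNTG1 on chromosome 8. The other members at 55 kb had contact counts of 36 and 37. In the whole list the pair ranked 11th by contact count and 13th by P value (P value 1.06e-142; q-value 1.73e-138), and it had the smallest P value on chromosome 1. The deposited sumCC, the contact counts added up over a merged group of neighboring significant bin pairs, was 313 for the group of 3 pairs that it heads, which ranked 163rd. By this sum the pair was 8th among those at 55 kb.

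The following pairs of the same bin also ended among the S100 genes. A bin between S100A7A and S100A7, 85 kb away at chr1:153450001-153455000, had a contact count of 103 (84.1 to 125; q-value 3.36e-60) and ranked 3rd of 786 at its distance. A bin between S100A7 and S100A6, 125 kb away at chr1:153490001-153495000, had 92 (74.2 to 113; q-value 7.33e-53) and ranked 4th of 592. These were 3.96 and 3.54 times the median at their distances. Both head merged groups in which every bin pair was significant, of 5 and 3 bin pairs with a sumCC of 300 and 144. The first group runs over 25 kb from chr1:153445001 to chr1:153470000 and holds S100A7, and the group around S100A7A, over 15 kb, holds the start of that gene, although neither start lies in the bin that is listed for its group. In all, 10 of the 69 interactions came from 9 merged groups, beside 7.69% of the list. The fourth contact count of the cluster, 54 (40.6 to 70.5), belonged to another pair of bins, which joined chr1:153275001-153280000 to a bin within PGLYRP4 60 kb away. Its rank at that distance was 64 of 1048.

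The interactions of the intergenic bin differed between its sides. Toward higher coordinates, where S100A12, S100A8, S100A7A, S100A7 and the other S100 genes lie, it had 14 interactions with a summed contact count of 755 and a median of 35.5 (range, 24 to 190), reaching to 830 kb. Toward lower coordinates, which hold S100A9, the PGLYRP genes and the cornified envelope genes, it had 11 interactions, reaching to 2115 kb. Their contact counts had a sum of 277 and a median of 23 (range, 18 to 36). Of those on the higher side 13 lay above the median at their distance, and of those on the lower side 8 did. The 6 nearest partners on the higher side carried 488 of the 1032 read pairs of the bin, or 47.3%. All 3 contact counts above 90 were on this side.

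Beyond the S100 genes, the partner bins of the intergenic bin held start sites of genes with other functions. On the higher side, CRTC2, a coactivator of CREB, had a contact count of 42 (30.3 to 56.8) at 585 kb, which ranked 2nd of 108 at its distance. S100A2, a gene of the same family, had 40 (28.6 to 54.5) at 200 kb, CHTOP, a chromatin-associated target of the arginine methyltransferase PRMT1, had 30, and INTS3, a subunit of the Integrator complex, had 24. On the lower side, PGLYRP3 had 36, PSMD4, a ubiquitin receptor of the proteasome, had 30 at 2115 kb, and LCE1D, a late cornified envelope gene, had 18. CRTC2 gave the largest contact count of these 7 genes, and its interval overlapped that of every other one but LCE1D.

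Use of the bins was uneven. Of the 73 bins of the 69 interactions, 60 took part in only 1 interaction of the whole list, beside 41745 of all 53535 anchor bins. The 4 most used touched 56 of the 69 interactions (81.2%), and no like share was computed for other parts of the list. The bin between S100A9 and S100A12 ranked 56th of 53535 anchor bins in the whole list by its number of interactions and 6th on chromosome 1, and its 36.2% of the members' interactions carried 46.8% of their contact counts. It was followed by the bin within PGLYRP3 at chr1:153305001-153310000 with 14 interactions, one between S100A7 and S100A6 at chr1:153495001-153500000 with 10, and one that holds the start of PGLYRP4 at chr1:153345001-153350000 with 8. At least 10 interactions were thus seen at 3 bins of the cluster, and at 2.1% of all anchor bins. PGLYRP3 and PGLYRP4 encode secreted proteins that bind bacterial peptidoglycan.

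The bin within PGLYRP3 lies 47.85 kb from S100A9, close to the limit of 50 kb, and 11 members belong to the cluster through it alone. The nearest interaction outside the limit, at 54.86 kb, joined chr1:153275001-153280000 to a bin that holds a start of S100A16 and had a contact count of 13 and a q-value of 0.00978. Among the 11, the largest contact count was 44 (32.0 to 59.1) with a bin within IL6R, the gene of the interleukin-6 receptor, 1105 kb away, which was the largest of the 45 listed interactions at that distance. The longest interaction of the cluster, 2990 kb, joined the bin between S100A7 and S100A6 to a bin within MEF2D, a transcription factor gene, with a contact count of 29 (19.4 to 41.6).

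Few interactions used the bins of the calprotectin genes themselves. S100A8 (chr1:153390032-153391073, minus strand) shared its bin with 1 interaction, at a contact count of 45 (32.8 to 60.2; q-value 4.79e-21) with the bin between S100A7 and S100A6 105 kb away, which was 1.8 times the median and ranked 54 of 686 at its distance. S100A9 (chr1:153357854-153361023, plus strand) and S100A12 (chr1:153373711-153375621, minus strand) had none in their bodies, although 40 and 36 interactions had a bin within 25 kb of them. Within 25 kb of S100A8 there were 27. The most used bin lies 3.98 kb from S100A9, 3.71 kb from S100A12 and 20.03 kb from S100A8. These distances are under the 50 kb minimum, so its 25 interactions could not include these genes.

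Fewer interactions lay near the other members. S100A7, or psoriasin, an antimicrobial protein of keratinocytes, had 1 listed interaction in its body. It joined the start of S100A7 to the start of PGLYRP4 115 kb away with a contact count of 31 and a q-value of 9.09e-11. The body of S100A7 also lies in the merged group with a sumCC of 300, where every pair with the intergenic bin was significant. The pairs of that group that hold S100A7 are not listed on their own. S100A4, known for its link to metastasis, had 2 listed interactions in its body. One had a contact count of 18 with the bin within PGLYRP3. The other had 15 between chr1:153545001-153550000 and a bin within GATAD2B, which encodes a subunit of the NuRD complex. The former bin holds a start of S100A3 and a transcript start of S100A4, but not the start of the S100A4 gene record at 153550136. S100A6, or calcyclin, had none in its body and 5 within 25 kb. S100A11, a partner of annexin A1, had 1, with the smallest contact count of the cluster (13; 6.92 to 22.2; q-value 0.00927), which joined it to the bin within PGLYRP3 across 1270 kb of the epidermal differentiation complex. S100A10, the light chain of the annexin A2 complex, had no interaction in its body or within 25 kb, and the one within 50 kb was that of S100A11. By the bins listed for them, without merged ranges, 5 of the 69 interactions overlapped the body of a member gene, with contact counts of 45, 31, 18, 15 and 13. They reached 4 of the 8 genes, beside 51.2% of all protein-coding genes with an anchor bin in the body. This share was not matched for gene length, and the members are 1042 to 15402 bases long.

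Pairs of member genes were then counted. Of the 28 pairs of the 8 genes, 24 had bins far enough apart to be called, and 0 had an interaction that joined both gene bodies, beside 1.5% of the 716208 pairs of protein-coding genes at such distances. With 24 pairs, a count of 0 is not set apart from this share, which was also not matched for gene length. The other 4 pairs, S100A8 with S100A9, S100A8 with S100A12, S100A9 with S100A12 and S100A6 with S100A4, lie under 50 kb apart, so contacts between the calprotectin genes could not enter the list.

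A transcription start site lay in an anchor bin for 4 of the 8 member genes (S100A8, S100A7, S100A4 and S100A11), and for 26.6% of all protein-coding genes. The number fell to 2 of the 8 with a q-value under 1e-05, beside 21.1% of all protein-coding genes, and to 2 with the start of the gene record alone, beside 13.5%. It was 7 for an anchor bin within 10 kb of a start site, beside 55.1%. Of the 12 other S100 genes of the annotation, 4 had one (S100A16, S100A2, S100A3 and S100A5), all of them on chromosome 1. S100A7A had a listed anchor in its body but not at a start, although the merged group around it holds a start. Among 7 genes for proteins that S100 proteins bind, BSG and ANXA6 had a start in an anchor bin, while AGER, the receptor for advanced glycation end products, TLR4, CD36, ANXA1 and ANXA2 had none. Among the genes of the epidermal differentiation complex, the start was in an anchor bin for PGLYRP3 and PGLYRP4 but not for FLG, LORICRIN or IVL, for 1 of 19 LCE genes and for 2 of 11 SPRR genes. At the level of interactions, 25 of the 69 had a protein-coding start site in at least 1 bin, beside 24.0% of the list. Of these 25, 8 used the bin with the start of PGLYRP4 and 2 that with the start of PGLYRP3, so they are not independent. A start site in both bins was seen for 2, S100A7 with PGLYRP4 and PI4KB with PGLYRP4.

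An HLF motif was found in 20 of the 73 anchor bins of the cluster (27.4%; Wilson 95% interval, 18.5 to 38.6), and in 31.5% of all anchor bins. The order was turned for TTACGTAA alone, at 5 of the 73 bins (6.85%) against 2.32% of all anchor bins. Bins 25 kb away from the anchors that were not anchors themselves held one in 20 of 93 (21.5%; 14.4 to 30.9), within the same interval. Along the 300 kb of chr1:153305001-153605000, 17 of 60 bins held one, and of the 35 bins there that were no listed anchors 10 did. Among these 10, the bins that start at chr1:153330001, chr1:153415001 and chr1:153485001 lie in merged groups. Every bin pair of these groups was significant, but these bins are not listed on their own. The 2 counts therefore do not separate bins with and without a significant pair. The bin between S100A9 and S100A12 held no HLF motif, whereas 49 of the 61 bins in the list with at least 25 interactions held one (80.3%), as did 66.7% of the 1126 bins with at least 10.

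Counted by interaction, 33 of the 69 had an HLF motif in at least 1 bin (47.8%; 36.5 to 59.4), beside 66.8% of the list. For the 25 interactions of the intergenic bin the motif could only come from the partner, and 8 had one. Without these, 25 of the other 44 interactions did (56.8%; 42.2 to 70.3), which leaves the list's share within the interval. The strongest pair was among the 8, through the site in S100A7A printed above. In the merged groups, all 3 bins around S100A7A held a site, and the group that spans S100A7 held 1. The group between S100A7 and S100A6 held 2, both in a bin that is not listed on its own. An HLF motif lay somewhere in 8 of the 9 merged groups of the cluster and in 83.7% of the 3587 merged groups of the list. The interactions share bins and are not independent, so no test was applied to these shares, and a match of the letters does not show binding.

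Of the RefSeq promoter windows (GRCh38.p14), which run from 250 bases before to 50 bases after a gene start, all 8 member genes were matched. Only that of S100A12 held an HLF motif, at position -77 from the start, in the site printed above, while 355 of 35116 windows did (1.01%). No listed interaction used the bin of this site, which is separated by 1 bin from the most used one.

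Matches to the core consensus of CTCF, a protein known for anchoring chromatin loops, were found in 5 of the 73 bins (6.85%; 2.96 to 15.1) and in 2.47% of all anchor bins. They lay in the bin of S100A8, on the plus strand, and, on the minus strand, in the bin between S100A7 and S100A6 with 10 interactions, in those of S100A4 and S100A2, and in a bin at chr1:152480001-152485000. The S100A8 interaction described above therefore joined a plus-strand match at lower coordinates to a minus-strand match at higher ones. No share of such pairs was computed for the list, and a role of CTCF was not tested. The bin between S100A9 and S100A12 held none.

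Near-identical sequence can place read pairs in the wrong copy. S100A7 and S100A7A share 662 stretches of 31 bases, and the partner bins at S100A7A and between S100A7A and S100A7 (chr1:153420001-153425000 and chr1:153450001-153455000) share 298, so contact counts of 190 and 103 may not be fully separated between these copies. The intergenic bin itself shares 0 stretches with the first and 11 with the second. Within any 1 of the 69 interactions, the 2 bins share at most 18 stretches. Across interactions, the bins that start at chr1:153425001 and chr1:153445001 share 535, and they lie in the merged groups of the pairs with 190 and 103.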

How the data were processed

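TCF3::HLF-HiChIP was carried out by the authors in HAL-01 cells with wt-TCF3 KO, in 2 replicates. Per the submitters' processing notes and the methods, reads were trimmed with Trim Galore 0.6.6, merged over replicates, aligned to hg38 with BWA and parsed into pairs without removal of duplicates, MACS2 peaks served as reference, and FitHiChIP (version not given in the sources used here) called interactions of 5-kb bins at distances of 50 kb to 3 Mb, keeping those whose q-value was below 0.01. The authors deposited raw contact counts of read pairs per bin pair and their sum per merged group. The deposited p-values and q-values come from the distance and coverage background of FitHiChIP, and the deposited fraction says how many of the bin pairs within a merged group were significant, as a share. Since duplicates were kept, the contact counts may include copies of the same read pair. Their ratios, ranks, p-values and q-values may be affected to an unknown extent, and the Poisson intervals are too narrow by an unknown amount. The depth is the sum of the listed contact counts (1268490), which covers significant interactions only.

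The build was checked, with 0 bins past the end of an hg38 chromosome. Genes were taken from GENCODE release 44, and start sites are those of any transcript. The members and gene lists were chosen with earlier results of these data known. Named genes are the 8 members, the other S100 genes, S100-binding proteins, genes of the epidermal differentiation complex, genes starting in partner bins of the strongest interactions and the genes of the 3 nearest pairs at 55 kb. IL6R, MEF2D, and the start genes of weaker partner bins (CHTOP, INTS3, PSMD4, GATAD2B, PI4KB), were added after their values were seen. Distance was compared between bin starts, and ratios use the median of all listed interactions at exactly that distance. Motifs were exact matches on both strands. Shared sequence was counted as 31-base stretches on either strand. Counting was tested on simulated data. Alternatives covered the window, thresholds, merged ranges, motif forms and start definitions. The genome was indexed and read with samtools 1.23.1 and pyfaidx 0.9.0.4, intervals were computed with scipy 1.17.1, tables were handled with pandas 2.3.3 and numpy 2.4.6 in Python 3.11.15, and figures were drawn with matplotlib 3.10.9.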

Additional observations from a re-analysis of the deposited data

How the results depend on the processing

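Leaving out a replicate was not possible because the list pools both. No paired analysis was possible because there is 1 condition and its replicates were merged. The number of interactions, 69, became 5 with the gene bodies alone and 44 without the most used bin (an alternative chosen after seeing the data), and ranged from 47 to 76 under the other windows, thresholds and exclusions. The ratio of the strongest pair to its distance median, 7.31, became 11.6 by sumCC and 6.13 among interactions with a q-value under 1e-05. The share of anchor bins with an HLF motif, 27.4%, became 6.85% for TTACGTAA alone, 43.8% for all 5 forms, 50.7% with bins widened by 1 bin on each side and 11.1% for gene bodies alone. Over all anchor bins the first 3 were 2.32%, 45.4% and 63.5%. The number of member genes with a start site in an anchor bin, 4, became 7 within 10 kb, 2 for the start of the gene record and 2 with a q-value under 1e-05. The bin between S100A9 and S100A12 was the most used in all settings run, with 21 and 23 interactions under stricter thresholds and a summed contact count of 1032 against 327 for the next bin. A contact count of 13 has an interval from 6.92 to 22.2, so neighbors in the order of weak interactions cannot be told apart at this depth.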
